A study of Rattus norvegicus with 6 samples.

Results

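The thrombospondin family of the rat has 5 genes, Thbs1, Thbs2, Thbs3, Thbs4 and Comp, and each was found once among the 33589 rows of the deposited table by its gene name. Of the 5, 4 had a mean of at least 1 FPKM (fragments counted per length of gene and per size of library) over all libraries, as did 12713 rows in all, and Comp did not. The family was chosen by the FPKM of these same stiff and soft libraries, so its stiff against soft values are given as a description and no test of them is used as support. PolyA RNA was measured in bone marrow mesenchymal stem cells (MSCs) of Rattus norvegicus, which had been held for 48 h in a hydrogel that the labels call SA and then taken out of the gel for library making. The soft gel had a stiffness of 2 kPa and the stiff gel of 18 kPa, with 3 libraries each. Both groups had the same low glucose medium with fetal bovine serum, penicillin and streptomycin. No source used here tells if the replicates came from different cultures or animals, and the p-values therefore rest on library-to-library spread alone, which may be technical.

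Thrombospondins are large secreted glycoproteins that bind calcium and act mostly as matricellular proteins, which sit in the matrix and pass signals to cells rather than bear load. Thbs1 and Thbs2 form trimers, carry type 1 repeats that bind the receptor CD36 and hinder blood vessel growth, and reach cells through CD47, integrins and the uptake receptor LRP1, while Thbs1 can also release TGF-beta from its latent complex. Thbs3, Thbs4 and Comp (cartilage oligomeric matrix protein) form pentamers without those repeats, and Thbs4 and Comp are best known from tendon, muscle and cartilage.

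Recovered reads per library ran from 14966354 to 16711527. Of 9 MSC markers, 8 were at 1 FPKM or more, and the list's summed level was 1316 to 1333 FPKM in soft and 1451 to 1460 FPKM in stiff libraries. Thy1 had the largest gap, at 499 ± 28.4 and 599 ± 34.7 FPKM (SD, n = 3), while Pdgfra and Pdgfrb had lower means in stiff gel. By limma 0 of the 8 were called, against 1.43% of all genes tested, and their median log2 difference was 0.03, with 6 of 8 above 0. All 9 macrophage and leukocyte markers found were also above 1 FPKM, with sums of 240 to 243 FPKM in soft and 234 to 235 FPKM in stiff libraries. Among them Adgre1 was higher and Cd68 and Cd53 were lower in stiff gel by limma (adjusted p = 0.0404, 0.0246 and 0.0271), and the other 6 were not called. Of all genes tested, 1.01% were called higher and 0.425% lower. These calls were lost in 6, 5 and 5 of the 6 fits that left out 1 library and all 3 with no filter on low values. Adgre1 also lost its call at equal FPKM sums (limma adjusted p = 0.0752), after quantile normalization (0.0867) and without the variance trend (0.0961). Cd68 lost it without that trend too (0.0535). Platelets hold much Thbs1 protein. Of 7 platelet markers Pf4 alone was above 1 FPKM, at 414 ± 16.1 and 427 ± 21.5 FPKM (SD, n = 3 per group), with the markers' sum at 400 to 432 FPKM in soft and 409 to 451 in stiff libraries. Of 7 endothelial markers Egfl7 alone was above 1 FPKM, and the sums were 6.33 to 7.16 FPKM and 6.96 to 9.35 FPKM. No marker on these lists was at 0 in all libraries. In bulk RNA, fewer cells of a type and less RNA per cell cannot be told apart, and the part of these other cells in the levels below was not tested.

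RefSeq promoter windows, running from 250 bases before to 50 bases after the gene start in build GRCr8, were matched for 4 of the 5 genes. Thbs2 had no window, so its letters could not be searched. They are shown for Thbs1 and Thbs4, whose stiff levels lay farther above soft, and for Thbs3, whose levels lay close together. This choice used the stiff and soft values, so no link between letters and levels is read from it. Letters searched on both strands were CATTCC for TEAD factors (the DNA-binding partners of YAP), CAGAC for SMAD, GGGCGG for SP1, TGANTCA for AP-1, CACGTG for USF and the SRF CArG box. Capitals mark every match, read 5' to 3' on the gene's strand, so a match on the other strand appears as its reverse complement.
Thbs1, chr3:125510000-125510299, plus strand: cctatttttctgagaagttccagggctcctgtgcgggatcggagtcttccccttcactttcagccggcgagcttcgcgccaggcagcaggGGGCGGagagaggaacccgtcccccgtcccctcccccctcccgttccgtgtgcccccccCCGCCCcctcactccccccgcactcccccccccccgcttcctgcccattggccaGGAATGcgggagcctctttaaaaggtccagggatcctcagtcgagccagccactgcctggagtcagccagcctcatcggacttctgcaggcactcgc
Thbs4, chr2:25760296-25760595, minus strand: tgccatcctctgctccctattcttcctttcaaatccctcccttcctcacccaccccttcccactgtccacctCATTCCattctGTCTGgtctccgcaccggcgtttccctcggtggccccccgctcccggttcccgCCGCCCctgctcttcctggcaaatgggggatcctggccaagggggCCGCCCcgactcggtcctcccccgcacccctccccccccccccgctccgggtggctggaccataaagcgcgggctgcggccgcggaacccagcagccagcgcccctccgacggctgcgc
Thbs3, chr2:176919349-176919648, plus strand: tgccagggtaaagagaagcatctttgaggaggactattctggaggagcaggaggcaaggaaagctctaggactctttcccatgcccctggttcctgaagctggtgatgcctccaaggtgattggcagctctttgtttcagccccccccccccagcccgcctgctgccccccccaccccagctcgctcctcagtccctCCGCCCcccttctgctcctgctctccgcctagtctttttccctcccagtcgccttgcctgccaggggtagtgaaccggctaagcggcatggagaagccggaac

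The TEAD letters occurred once in the Thbs1 window, on the opposite strand from 47 to 42 bases before the start, and once in the Thbs4 window, on the gene strand from 178 to 173 bases before it. They were in neither the Thbs3 nor the Comp window, and 14.2% of all 33469 promoter windows held them. SP1 letters were in the Thbs1 and Thbs4 windows at 2 places each and in the Thbs3 window at 1 place, against 33.1% of all windows with at least 1. SMAD letters stood once in the Thbs4 window and at 2 places in the Comp window, 185 and 20 bases before its start, and 50.1% of all windows held them. AP-1 letters (7.33% of windows), USF letters (6.42%) and the CArG box (1.64%) had no match in the 4 windows. A match is a description of letters, not a site shown to be bound, and none of the searched letters overlapped in these windows. The windows were rich in G and C, at 67.0% for Thbs1, 70.0% for Thbs4, 61.7% for Thbs3 and 64.7% for Comp, where the median of all windows was 51.7%.

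**Figure D1:**
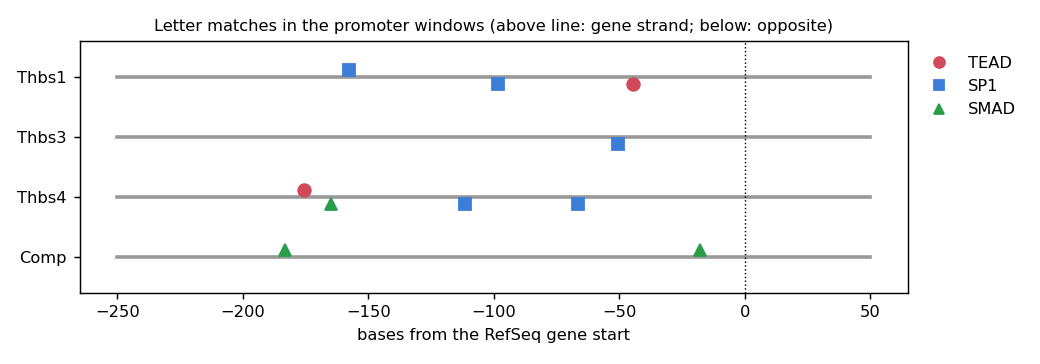
Letter matches in the RefSeq promoter windows of 4 family genes, with distance from the gene start in bases on the x axis and matches on the gene strand drawn above each line. TEAD letters appear in the Thbs1 and Thbs4 windows and in neither of the others, and SP1 letters appear in 3 of the 4. Thbs2 had no window.

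The comparison of stiff with soft gel asks how the stiffness around the cells went with the level of each gene. Thbs1 was 1.61 times as high in stiff as in soft gel, Thbs4 1.38 times, Thbs2 1.25 times and Thbs3 1.10 times, as ratios of mean FPKM. Comp was barely detected in either gel. Every one of the first 4 genes had its 3 stiff libraries above its 3 soft ones, which was also so for 11.7% of all genes tested. In the limma fit over all genes, 3 of the 4 (Thbs1, Thbs2 and Thbs4) passed a Benjamini-Hochberg adjusted p of 0.05, all higher in stiff gel, where 1.43% of all tested genes passed in either direction and 1.01% passed as higher. That count was 1 of 4 (Thbs1) without soft replicate 2, soft replicate 3 or any 1 of the stiff libraries. It was 2 of 4 (Thbs1 and Thbs4) with no variance trend, and 2 of 5 (the same genes) with no filter on low values, where Comp was also fitted. Since this contrast chose the genes, nothing is read from these counts.

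**Figure D2:**
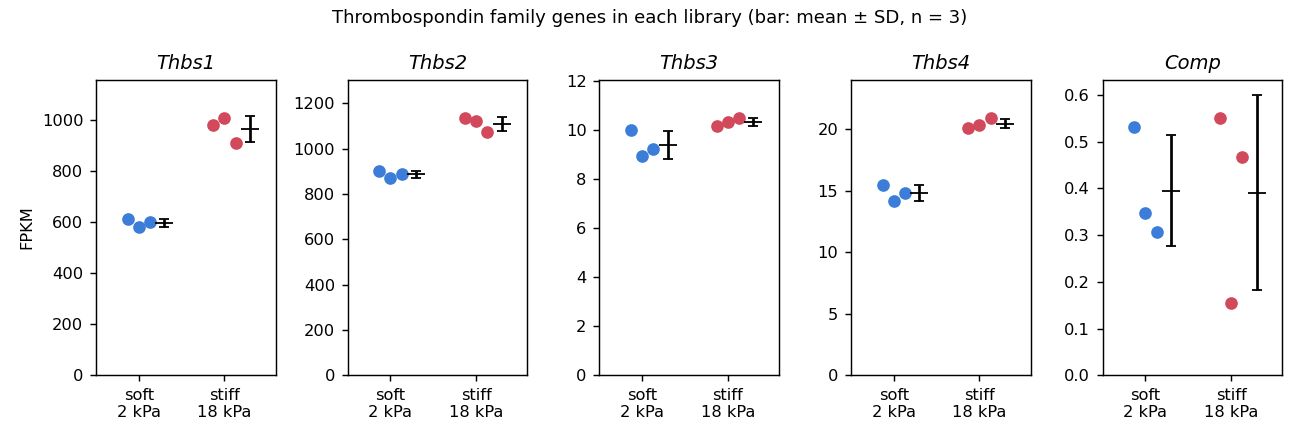
FPKM of each family gene in each library, with points for soft (2 kPa) and stiff (18 kPa) gel and bars for the mean ± SD of 3 libraries, each panel on its own linear axis from 0. Thbs1, Thbs2, Thbs3 and Thbs4 have all stiff points above all soft points, and the points of Comp overlap.

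Thbs1, the trimeric thrombospondin that activates latent TGF-beta, had 613, 582 and 600 FPKM in the soft libraries, in order of replicate, against 982, 1007 and 909 FPKM in the stiff ones. The groups were far apart, and the lowest stiff library, replicate 3, still stood well over the highest soft one. Means were 598 ± 15.9 and 966 ± 51.2 FPKM (SD, n = 3), a fitted difference of 0.69 on the log2(FPKM + 1) scale with an SE of 0.0538. Of the tested genes 0.810% had a larger positive difference. Among all rows ordered by FPKM, Thbs1 stood between place 87 and place 92 in soft libraries and between 39 and 54 in stiff ones. Between 34824 and 59496 reads lay behind each value, so counting alone would give a coefficient of variation of 0.527% in soft and 0.422% in stiff gel. The observed 2.66% and 5.30% were several times larger, so depth did not limit this gene. Thbs1 (ENSRNOG00000045829) lies on the plus strand of chromosome 3 from 109862117 to 109873466, in the table's own coordinates, whose build is not named there.

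Thbs2, the close relative of Thbs1 that shares its trimer and its vessel-inhibiting repeats, had the highest level of the family. Its soft libraries were at 901, 871 and 890 FPKM and its stiff ones at 1134, 1120 and 1075 FPKM. The groups did not overlap, and as for Thbs1 the lowest stiff value was that of replicate 3. Means were 887 ± 15.4 and 1110 ± 30.5 FPKM (SD, n = 3), a fitted log2 difference of 0.32 with an SE of 0.0441, and 4.55% of tested genes had a larger positive one. Reads numbered 83847 to 106467 per library. Thbs2 (ENSRNOG00000010529) lies on the minus strand of chromosome 1 from 56653938 to 56683731.

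Thbs2 exceeded Thbs1 in every library, and the distance was smaller in stiff gel. The ratio of Thbs1 to Thbs2 was 0.681, 0.668 and 0.674 in the soft libraries and 0.866, 0.899 and 0.845 in the stiff libraries, in order of replicate. All stiff ratios lay above all soft ratios, and the SDs were 0.00630 in soft and 0.0272 in stiff gel. Both genes were chosen by these values and no other gene pairs were compared, so the ratio is a description only. This ratio is taken within a library, so a linear scaling of the library cannot move it. In FPKM, Thbs2 stood 288 to 290 above Thbs1 in soft and 113 to 167 above it in stiff libraries. Levels of different genes depend on the gene length in the table, which was 3655 bases for Thbs1 and 5879 bases for Thbs2, and whether either length covers the whole transcript was not tested. In reads, which are not corrected for length, Thbs1 and Thbs2 together took 0.734% to 0.758% of a soft library and 0.966% to 1.03% of a stiff one.

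**Figure D3:**
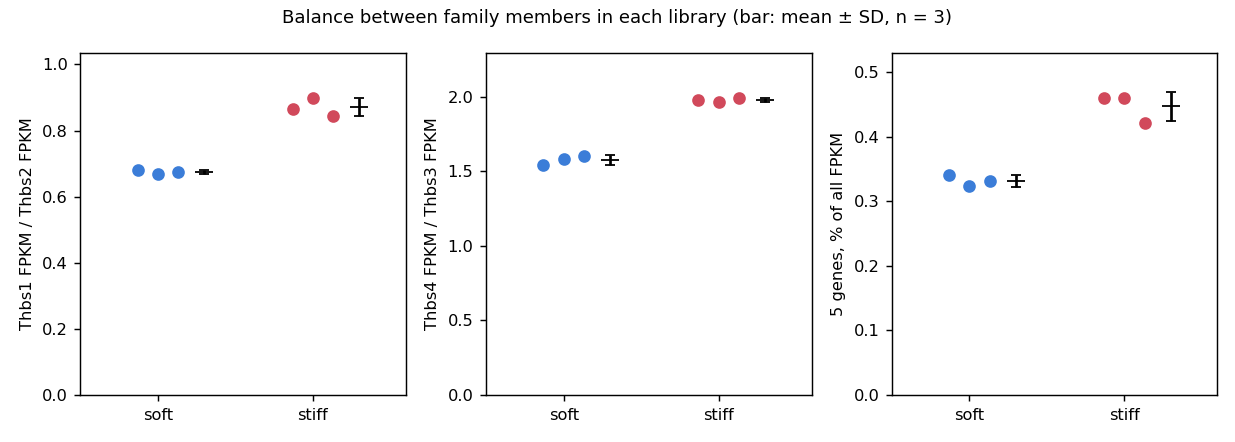
Ratio of Thbs1 to Thbs2 FPKM, ratio of Thbs4 to Thbs3 FPKM, and the share of all FPKM taken by the 5 genes (percent), in each soft and stiff library, with bars for the mean ± SD of 3 libraries and axes from 0. In all 3 panels the stiff points lie above the soft points.

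Among the pentameric members, Thbs4, which is induced in injured muscle and heart, had 15.4, 14.1 and 14.8 FPKM in the soft libraries, in order of replicate, against 20.1, 20.3 and 20.9 FPKM in the stiff ones. The groups were clearly parted. Means were 14.8 ± 0.653 and 20.4 ± 0.388 FPKM (SD, n = 3), a fitted log2 difference of 0.44 with an SE of 0.0590, and 2.46% of tested genes had a larger positive one. With 745 to 1125 reads per library, counting alone would give variation of 3.57% in soft and 3.09% in stiff gel, close to or above the observed 4.42% and 1.90%. The small SD in stiff gel therefore does not measure how precise the level of Thbs4 is. Thbs4 (ENSRNOG00000012471) lies on the minus strand of chromosome 2 from 22343727 to 22385855.

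Thbs3, the other pentamer-forming gene above 1 FPKM, with known roles in skeletal growth, had 10.0, 8.93 and 9.24 FPKM in the soft libraries, in order of replicate, against 10.2, 10.3 and 10.5 FPKM in the stiff ones. The stiff values lay above the soft ones, though soft replicate 1 came near the lowest stiff library. All FPKM of a library summed to 452787 to 457306 in soft and to 467372 to 478304 in stiff gel. For Thbs3 the lack of overlap therefore depends on the scaling. Means were 9.39 ± 0.560 and 10.3 ± 0.150 FPKM (SD, n = 3), and the fitted log2 difference of 0.13 had an SE of 0.0669. At equal FPKM sums that difference was 0.08 with an SE of 0.0689. With 461 to 553 reads per library, counting alone would give variation of 4.53% and 4.39%, so a difference of this size was near the limit of the depth. Thbs3 (ENSRNOG00000059903) lies on the plus strand of chromosome 2 from 188528979 to 188540736. The ratio of Thbs4 to Thbs3 was 1.57 ± 0.0317 in soft and 1.98 ± 0.0132 in stiff gel (SD, n = 3), with no overlap. Relative to their means, both SDs were smaller than the variation that counting alone would give either gene. They therefore do not measure how precise the ratio is. Like that of Thbs1 to Thbs2, this ratio is a description only.

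Comp, a marker of cartilage and tendon matrix, had 0.530, 0.348 and 0.306 FPKM in the soft libraries, in order of replicate, against 0.550, 0.154 and 0.468 FPKM in the stiff ones. The groups overlapped fully, and stiff replicate 2 had the lowest value. These are 14 to 25 reads per soft and 7 to 23 reads per stiff library. Summed over a group, 55 reads in soft libraries gave 1.12 RPM, that is reads scaled to equal library size (exact 95% Poisson interval 0.847 to 1.46). The 52 reads in stiff libraries gave 1.09 RPM (0.812 to 1.43). A difference within these intervals was not detectable at this depth. The intervals cover counting error only, and 3 reads of Comp corresponded to between 0.0636 and 0.0717 FPKM. Comp (ENSRNOG00000048472) lies on the minus strand of chromosome 16 from 20798437 to 20807070.

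The order of levels per length was Thbs2, Thbs1, Thbs4, Thbs3 and Comp in every library, and within each gel no neighbours in that order had overlapping ranges. Thbs1 and Thbs2 made up 98.3% to 98.6% of the family's FPKM. Thbs1 alone made up 39.4% to 39.8% in soft and 45.1% to 46.7% in stiff libraries, and Thbs2 fell from between 58.5% and 59.0% to between 51.9% and 53.3%. The family's summed level was 1510 ± 32.5 FPKM (SD, n = 3) with soft gel against 2107 ± 79.2 FPKM with stiff gel. Of that gap, Thbs1 held 367.6 FPKM, Thbs2 222.6, Thbs4 5.65 and Thbs3 0.939. As a share of all FPKM the family took 0.323% to 0.340% in soft and 0.421% to 0.460% in stiff libraries.

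The fitted differences of the 4 genes above 1 FPKM were positive under all 15 alternatives of scaling, filter, pseudocount, model and library. Thbs1 ran from 0.58 after quantile normalization to 0.73 without stiff replicate 3. Without soft replicate 1, which stood apart on the first principal component, the differences were 0.71 for Thbs1, 0.33 for Thbs2, 0.17 for Thbs3 and 0.47 for Thbs4.

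**Figure D4:**
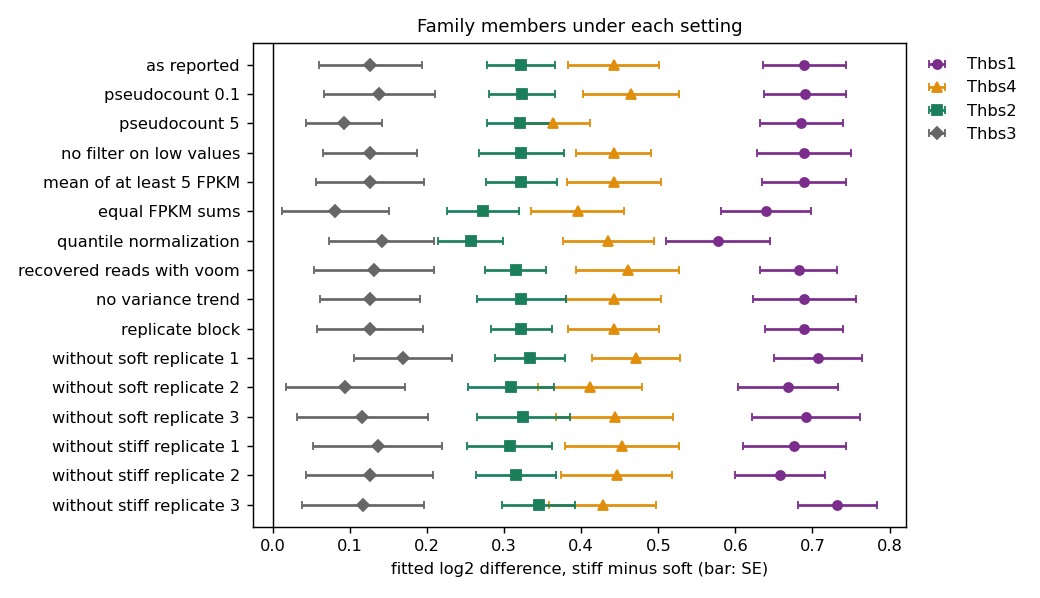
Fitted log2 difference between stiff and soft gel (x axis, bars give the SE) of the 4 family genes above 1 FPKM under each setting (y axis). Thbs1 lies between 0.58 and 0.73 and above the other 3 genes in every setting.

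No other row of the table overlapped any of the 5 genes in its coordinates. Mtx1, a mitochondrial import gene that lies 784 bases from Thbs3 on the opposite strand, was at 26.3 ± 0.832 FPKM (SD, n = 3) in soft gel with a log2 difference of -0.07 (limma adjusted p = 0.623). On its other side the microRNA gene Mir92b, 298 bases away, was listed at 0. Beside Thbs4, Serinc5 was at 23.9 ± 1.21 and 24.5 ± 1.13 FPKM and Mtx3 at 6.34 ± 0.688 and 6.16 ± 1.54 FPKM. Beside Comp, Crtc1 was at 14.3 ± 1.31 and 11.6 ± 0.879 FPKM and Upf1 at 21.0 ± 1.99 and 19.2 ± 0.832 FPKM. Of these 5 protein-coding neighbours 0 were called by limma, and Crtc1 alone had p under 0.05 before adjustment. Over all genes tested 1.43% were called and 15.4% had p under 0.05 before adjustment, so nothing is read from these 5. The nearest named rows around Thbs1 and Thbs2 were small nuclear RNA and long non-coding RNA genes at least 37996 bases away, each at a mean of 0.418 FPKM or less in both gels.

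Across the 6 libraries, the gene most like Thbs1 in log2(FPKM + 1) among 8774 genes at 5 FPKM or more was Thbs2, with a Pearson correlation of 0.998. Next came Slc1a4, a neutral amino acid transporter (0.996), the metalloproteinase gene Adamts1 (0.995), Cemip, which takes part in hyaluronan breakdown (0.995), and the tubulin gene Tuba1b (0.995). After Thbs1, those most like Thbs2 were Ccnb1 (0.995), Axl (0.995), Cemip (0.994) and Slco2a1 (0.993). Thbs4 was followed most closely by LOC100910996 and Fdps (0.998 each), the smooth muscle actin gene Acta2, the caveolar coat gene Cavin1 and Ramp3 (0.996 each). Thbs3 had AABR07032338.1 (0.999), Rps4y2 (0.988), Tpm3 (0.987), Ubac2 (0.985) and Clu (0.982). The 6 points share the step between the 2 gels, so any gene with a steady difference scores high, and these values are descriptions only. Within the family, Thbs4 had correlations of 0.978 with Thbs1 and 0.976 with Thbs2, and Comp had values between -0.08 and 0.18 with the others.

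Genes around the thrombospondins were read from 9 lists by function, over all 12713 genes tested, where the median log2 difference was 0.00 and 50.4% lay above 0. As background for the counts that follow, 1.01% of all genes tested were called higher, 0.425% were called lower and 15.4% had p under 0.05 before adjustment. No list is called different from that background, since none was tested against it. In lists with calls, p was under 0.05 before adjustment in 11 of 15 other matricellular genes and 5 of 8 cartilage and tendon genes. The count was 7 of 17 for type 1 repeat proteins and 4 of 10 for TGF-beta ligands and activators. It was 6 of 14 for binding partners and 2 of 13 for TGF-beta targets. All lists were chosen with earlier results of these data known, so these counts are descriptions. Of 17 receptors and uptake proteins 16 were measured, Cd36 not being matched by name, and 0 were called by limma or by voom, and 4 had p under 0.05 before adjustment. Their median log2 difference was -0.02, with 7 of 16 above 0. Calr (whose difference changed sign after quantile normalization), the calreticulin that works with LRP1 at the cell surface, was at 764 ± 16.6 and 828 ± 30.0 FPKM, and Lrp1 at 617 ± 66.7 and 496 ± 41.9 FPKM (limma adjusted p = 0.301 and 0.178). Cd47, the receptor for the C-terminal end of thrombospondins, was at 54.5 ± 3.18 FPKM in stiff gel, with a log2 difference of 0.13 (limma adjusted p = 0.525). Enzymes that add sugars to type 1 repeats, with folding helpers, had 0 calls in 8 genes by limma and by voom, with 1 at p under 0.05 before adjustment and a median of 0.08. The folding helper Pdia3 was at 431 ± 22.4 and 473 ± 21.7 FPKM (limma adjusted p = 0.344). Hspa5, also a folding helper and the 1 gene with p under 0.05 before adjustment, was at 357 ± 1.08 and 408 ± 6.21 FPKM (limma adjusted p = 0.0832). Of the enzymes, Pofut2 and B3glct had log2 differences of 0.09 and -0.06 (limma adjusted p = 0.635 and 0.803).

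Of 10 genes of TGF-beta ligands, latent binders and activators over the filter, 1 rose, Ltbp1, a latent TGF-beta binding protein, from 30.6 ± 0.524 to 43.1 ± 1.11 FPKM (SD, n = 3; limma adjusted p = 0.00860, median of the list -0.02). That call was lost without soft replicate 3 or stiff replicate 1 (adjusted p up to 0.0603). TGF-beta targets, a list trimmed after its values were seen, gave 1 rise and 1 fall in 13 with a median of -0.04, and the balance of rises and falls is not read. Ccn2 went from 195.0 ± 3.99 to 375.3 ± 1.55 FPKM (limma adjusted p = 0.000673), and its call held in all 6 fits that left out 1 library. Tgfbi fell from 155.0 ± 5.80 to 118.1 ± 2.02 FPKM (limma adjusted p = 0.0154), a call lost in 5 of the 6 fits that left out a library, with adjusted p up to 0.0874, and without the variance trend (0.0501).

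Binding partners and proteases had 1 rise and 1 fall in 14 genes tested with a median of 0.03, and this list too was trimmed after its values were seen, so the balance is not read. Adamts1, which can cut thrombospondins, rose from 50.7 ± 0.182 to 71.4 ± 3.81 FPKM, and Vegfa, whose action Thbs1 counters, fell from 347.0 ± 13.6 to 276.7 ± 9.01 FPKM (SD, n = 3; limma adjusted p = 0.0114 and 0.0325). Leaving out 1 library lost these calls in 4 and 5 of 6 fits, with adjusted p up to 0.0735 and 0.133, and Vegfa also lost it with no filter (0.0757) or no variance trend (0.0890). Of 15 other matricellular genes 4 rose and 1 fell, with a median of 0.12. Beside Ccn2 these were Ccn1 (log2 difference 0.49), Smoc1 (0.47) and Tnc (0.42, named after its value was seen), with Ccn3 lower (-0.77). Ccn3 kept its call in all 6 fits without 1 library, Ccn1 lost it without soft replicate 3 or stiff replicate 1 (limma adjusted p up to 0.0546), and Smoc1 and Tnc in 5 fits (up to 0.0988 and 0.113). Without the variance trend 3 matricellular genes rose, and Tnc was not among them. Spp1, the osteopontin gene, was at 4832 and 4002 FPKM and Sparc at 2296 and 2547 FPKM, neither of them called.

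Of 17 genes over the filter in a list of other proteins with type 1 repeats, which does not hold all such genes, 2 rose, Adamts1 and Spon2, a matrix protein of the spondin group, which went from 16.9 ± 0.787 to 28.0 ± 1.93 FPKM (SD, n = 3; limma adjusted p = 0.00747, and 0.0546 without stiff replicate 1). The median of the list was -0.03, with 8 of 17 above 0. Outside the list and named after its value was seen, Adamts15, a related metalloproteinase with such repeats, fell from 13.7 ± 1.10 to 9.25 ± 0.665 FPKM (SD, n = 3; limma adjusted p = 0.0350). Its call was lost in all 6 fits without 1 library (adjusted p up to 0.133), with no filter (0.0818) and without the variance trend (0.0554). Among cartilage and tendon genes, the surroundings in which Comp and Thbs4 are best known, 7 of 15 lay under the filter and 1 of the other 8 rose, Acan, the aggrecan gene, by 0.56 on the log2 scale to 4.88 ± 0.186 FPKM (limma adjusted p = 0.0243; median of the list -0.04). The call of Acan was lost in 5 of 6 fits without 1 library (adjusted p up to 0.114) and with no filter on low values (0.0684). The tendon regulator Scx was at 4.72 ± 0.791 and 8.97 ± 1.82 FPKM and did not pass (limma adjusted p = 0.0672). Fmod was at 6.43 ± 0.133 and 8.66 ± 0.450 FPKM and did not pass either (limma adjusted p = 0.0522). Prg4 went the other way, at 108 ± 9.43 and 80.7 ± 5.42 FPKM, and also did not pass (limma adjusted p = 0.0615). The list was mixed, with 4 of the 8 above 0. Of 18 regulators of Thbs1 or Thbs2 0 were called by limma or by voom, with 2 at p under 0.05 before adjustment and a median of -0.02. Junb was at 153.3 ± 17.5 and 135.5 ± 11.1 FPKM and Yap1 at 74.2 ± 13.2 and 70.5 ± 3.96 FPKM. The 2 genes with p under 0.05 before adjustment went opposite ways. Myc, which is known to hold Thbs1 down, was at 14.1 ± 1.39 and 18.0 ± 0.269 FPKM (limma adjusted p = 0.107). Jun was at 37.8 ± 2.42 and 32.3 ± 2.19 FPKM (limma adjusted p = 0.215).

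**Figure D5:**
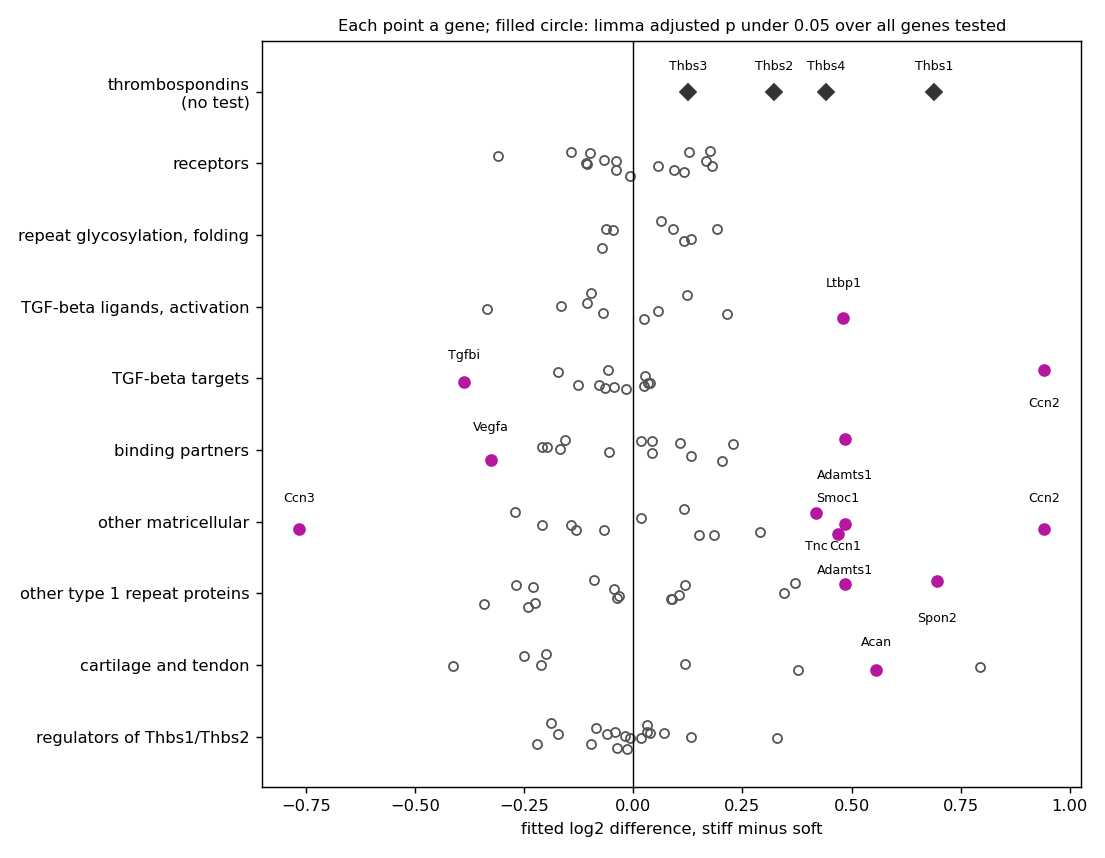
Fitted log2 difference between stiff and soft gel (x axis) of each tested gene in the thrombospondin family and in 9 related lists (y axis), with filled circles for genes that passed limma's adjusted p of 0.05 over all genes tested. The receptor, glycosylation and regulator lists hold no filled circle, and the family is drawn without a test.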

How the data were processed

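The authors deposited 1 table of FPKM per gene and library; per the submitters' processing notes Bowtie 0.12.9, Cufflinks 2.1.1 and HTSeq were used, with the mouse builds mm10 and GRCm38 named, though the table carries rat Ensembl identifiers. How strand and reads with several alignments were handled is not stated per the labels. FPKM times gene length fell on whole multiples of 1 step per library for 100% of values (tolerance 0.0001), which gave reads per gene, used for depth, precision and 1 alternative. The design text speaks of quadruplicates, and 3 libraries per group were analysed here. Rows with a mean of at least 1 FPKM were fitted in limma 3.58.1 (R 4.3.3) on log2(FPKM + 1), group as the only term, with an intensity trend, two-sided, Benjamini-Hochberg at 0.05; such differences understate the change of low genes. The fit was tested on simulated data. Comparing 3 with 3 libraries by rank cannot go below an exact p of 0.1, so ranks alone were not tested. No 2 libraries of a group agreed within sampling noise (chi-square per degree of freedom 3.71 or more).

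The members and all gene lists were chosen with earlier results of these data known. Named were the members and up to 4 called genes of each list by smallest p (otherwise the 2 most abundant). The nearest named rows beside each member and the 5 genes most correlated with each were also named. Cd47, Scx, Fmod, Prg4, Pofut2, B3glct, Spp1, Sparc, Myc, Jun, Tnc, Adamts15 and the marker genes were named after their values were seen. Older symbols were matched through RefSeq's GRCr8 table, and 9 list genes found no match. Promoter windows are RefSeq's. Protein features were not analysed here. In 2 lists, those of TGF-beta targets and of binding partners, 1 gene is not reported here and was left out of their counts and medians after the values were seen. Alternatives changed the pseudocount, filter, scaling, unit, variance model, block and library.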

Additional observations from a re-analysis of the deposited data

How the results depend on the processing

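Fitted log2 differences of the 4 members above 1 FPKM kept their sign under all 15 alternatives. Values that moved by more than the replicate SD were Thbs4 at 0.36 with a pseudocount of 5, Thbs2 at 0.27 and Thbs4 at 0.40 at equal FPKM sums, and Thbs1 at 0.58 and Thbs2 at 0.26 after quantile normalization. Leaving out 1 library gave 0.66 to 0.73 for Thbs1, 0.31 to 0.34 for Thbs2, 0.09 to 0.17 for Thbs3 and 0.41 to 0.47 for Thbs4; Comp was fitted only without the filter. Among all tested genes 128 rose and 54 fell, against 71 and 21 with no filter, 207 and 119 with voom on recovered reads, 85 and 27 without the variance trend, and 19 to 116 and 7 to 43 without 1 library. At equal FPKM sums they were 88 and 68, which shifts the split by more than 10 percentage points. The replicate block gave 78 and 27, and 2 members passed rather than 3, Thbs4 not among them, from which nothing is read since this contrast chose them; the block also ended the calls of Acan (adjusted p = 0.0687), Smoc1 (0.0550), Adgre1 (0.0792), Cd68 (0.0680) and Cd53 (0.0573) in limma. Deviations of same-numbered libraries had correlations of 0.0552, 0.116 and -0.08 across genes, and not every library correlated best with its own number, so the numbers were not taken as pairs. List counts are small and moved by up to 3 genes. The cartilage and tendon list had 2 rises with a pseudocount of 0.1, 2 rises and 1 fall with a filter at 5 FPKM, 1 fall at equal FPKM sums, 2 rises after quantile normalization, 3 rises and 1 fall with voom and 0 rises with no filter. Matricellular falls were 2 with the filter at 5 FPKM, at equal FPKM sums, after quantile normalization and with voom. Falls among partners were 0 with no filter or no variance trend and 2 with voom, TGF-beta target falls were 0 without the trend, and falls among type 1 repeat proteins were 2 with voom. Without 1 library, rises and falls ran over 0 to 1 and 0 to 1 (cartilage and tendon), 1 to 4 and 1 (matricellular), 0 to 1 and 0 to 1 (partners), 1 and 0 to 1 (TGF-beta targets), 0 to 1 rises (TGF-beta ligands), 0 to 3 rises (type 1 repeat proteins) and 0 to 1 rises (regulators), and were 0 in receptors and glycosylation. Of 359 values for single named genes under alternatives, 69 lost their call and 4 changed sign, all of genes not called in any fit: Pf4 at -0.0025 with FPKM sums made equal and -0.035 by quantile normalization, Calr at -0.032 by quantile normalization, and Yap1 at 0.074 without soft replicate 1, where fits without 1 library ran from -0.170 to 0.074. Fits without 1 library have fewer samples; the cause of the other shifts was not tested. Depth limits Comp and, in part, Thbs3.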
